A study of Mus musculus with 8 samples.

Results

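Kinesins are motor proteins that use ATP to move along microtubules or to take them apart, and each gene studied here codes for the motor-bearing heavy chain. In neurons, transport kinesins carry vesicles, mitochondria and RNA along axons and dendrites, whereas mitotic kinesins build the spindle and separate chromosomes in cells that divide. Neurons of the adult brain do not divide, whereas a small number of other brain cells do. The kinesin genes were taken by symbol, as Kif followed by a number and at most one letter from a to c, or Kifc1 to Kifc3, and 40 of the 24343 genes measured matched. By the known roles of their proteins, 15 were placed in a transport list, 13 in a mitotic list, 6 in a list of microtubule regulators and 5 in a cilia list, and Kif12 was in none.

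RNA from whole brains of 3 C57BL/6NCrl mice, a standard inbred laboratory strain, aged 56 to 62 days and kept under a single condition with no treatment or engineered allele named, was sequenced. Mouse 1 and mouse 2 gave 3 libraries each and mouse 3 gave 2. The sex of the mice and what the library numbers stand for are not given in the labels. Levels are FPKM (sequenced fragments scaled for the length of the transcript and the depth of the library), summed over the transcripts of a gene, averaged over the libraries of a mouse and then over the mice, and given as mean ± SD between mice with n = 3. Each library had between 1.31 and 2.02 gigabases (median 1.76) read on transcripts. In bulk tissue, a lower share of cells of one type and less RNA per cell cannot be told apart.

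Before the levels are given, the mice have to be set beside each other, since both libraries of mouse 3 stood apart from the other 6. Their deviation from the mean of all libraries fell with transcript length (Spearman correlations across genes of -0.371 and -0.589), while that of the 6 libraries of mice 1 and 2 rose with it (0.167 to 0.486). Marker genes of the brain's cell types also differed. The summed FPKM of the oligodendrocyte markers Mbp and Mog was 1333 and 1364 in mice 1 and 2 but 3223 in mouse 3, and that of 3 neuronal markers (Snap25, Syt1 and Rbfox3) was 1463, 1398 and 1216. Each sum was mostly 1 gene. Mbp had 1288, 1322 and 3166 FPKM in the 3 mice, and Mog 45.4, 41.4 and 57.4. Snap25 had 1112, 1056 and 999, and its libraries overlapped between mouse 3 and the others. The defining genes of tissues outside the brain were at or near 0, with 5 of 5 at a mean of 0.369 FPKM or less and the albumin gene Alb at 0 in 8 of 8 libraries.

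The promoters of the mitotic genes are shown first, since they share a short element that the choice of genes did not use. The cell cycle homology region is a site through which the DREAM complex represses cell-division genes in cells that are not dividing, and it is often found with CCAAT boxes, the sites of NF-Y. Promoter windows from RefSeq (GRCm38.p6, 250 bases before and 50 after a start site) were found for 32 of the 40 genes, 36 windows in all. The windows were searched on both strands for the cell cycle homology region (TTTGAA, with TTCGAA as its accepted variant), the CCAAT box, E2F sites (TTTGGCGC, TTTCGCGC or TTTCCCGC) and the NRF1 site GCATGCGC. The first of these was found in 10 of 12 mitotic genes (83.3%) and in 1 of 10 transport genes, beside 21.7% of 27025 genes of the RefSeq table. For Kif2c, counted among the mitotic genes, the only window lay inside its deposited locus (chr4:117159633-117182624), so its outermost start was not searched. CCAAT was found in 8 of 12 mitotic genes and 3 of 10 transport genes, beside 41.1% of all genes. E2F sites were rarer and were held by Kif15 and Kif18a of the mitotic list and by no transport gene, beside 2.12% of all genes. The NRF1 site was held by Kif3a of the transport list and by no mitotic gene, beside 3.05% of all genes. A match is only a run of letters, and no binding was measured.

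The 120 bases from 70 before to 50 after the start site, a stretch chosen after the matches were seen, held the cell cycle homology region in 8 of 12 mitotic genes (66.7%), in 1 of 10 transport genes and in 7.39% of all genes. They are printed for 5 mitotic genes with the element close to the start site and for 4 transport genes, each on the strand of the gene from 5′ to 3′, with every match in capitals whichever strand it was read on (ATTGG is a CCAAT box on the opposite strand).
Kif11 chr19:37376312-37376431 (plus strand): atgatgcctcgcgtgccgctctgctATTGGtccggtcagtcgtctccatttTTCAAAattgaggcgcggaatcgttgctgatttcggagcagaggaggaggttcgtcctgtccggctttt
Kif22 chr7:127042371-127042490 (minus strand): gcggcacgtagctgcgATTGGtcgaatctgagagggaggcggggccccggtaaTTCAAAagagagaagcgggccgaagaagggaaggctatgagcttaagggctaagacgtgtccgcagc
Kif23 chr9:61946750-61946869 (minus strand): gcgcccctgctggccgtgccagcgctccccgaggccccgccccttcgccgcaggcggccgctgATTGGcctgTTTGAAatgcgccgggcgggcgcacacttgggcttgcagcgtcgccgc
Kif4 chrX:100625995-100626114 (plus strand): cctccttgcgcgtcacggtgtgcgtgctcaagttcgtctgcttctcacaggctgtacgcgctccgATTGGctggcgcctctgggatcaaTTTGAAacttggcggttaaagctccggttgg
Kifc1 chr17:33890584-33890703 (minus strand): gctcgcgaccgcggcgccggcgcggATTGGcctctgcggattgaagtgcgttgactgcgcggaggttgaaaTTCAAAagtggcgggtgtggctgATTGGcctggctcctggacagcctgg
Kif1a chr1:93082431-93082550 (minus strand): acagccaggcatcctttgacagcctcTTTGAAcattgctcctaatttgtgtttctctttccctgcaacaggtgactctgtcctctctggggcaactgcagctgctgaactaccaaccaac
Kif1c chr11:70700478-70700597 (plus strand): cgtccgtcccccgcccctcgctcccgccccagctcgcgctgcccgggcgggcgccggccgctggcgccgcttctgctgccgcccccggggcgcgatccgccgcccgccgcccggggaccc
Kif3a chr11:53567299-53567418 (plus strand): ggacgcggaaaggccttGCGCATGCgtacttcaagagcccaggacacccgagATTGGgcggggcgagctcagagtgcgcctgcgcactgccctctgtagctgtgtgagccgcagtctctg
Kif5c chr2:49619216-49619335 (plus strand): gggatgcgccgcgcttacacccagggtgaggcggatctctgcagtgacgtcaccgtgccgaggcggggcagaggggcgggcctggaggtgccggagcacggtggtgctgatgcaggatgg
In the mitotic genes the element began 19 bases before the start site in Kif11, 17 before it in Kif22, and, with the start site counted as base 1, at base 2 in Kifc1, base 3 in Kif23 and base 20 in Kif4. The match of the transport list lay 44 bases before the more downstream start of Kif1a, at which the most abundant transcript of Kif1a begins, and the other Kif1a window had none. The windows of Kif1c and Kif5c held none of the 4 motifs. Outside both lists, Kif24, Kif26b and Kif27 also held the cell cycle homology region. Kif5a, Kif5b, Kif13b, Kifc2, Kifc3, Kif20a, Kif21b and Kif19a were not among the windows.

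**Figure D1:**
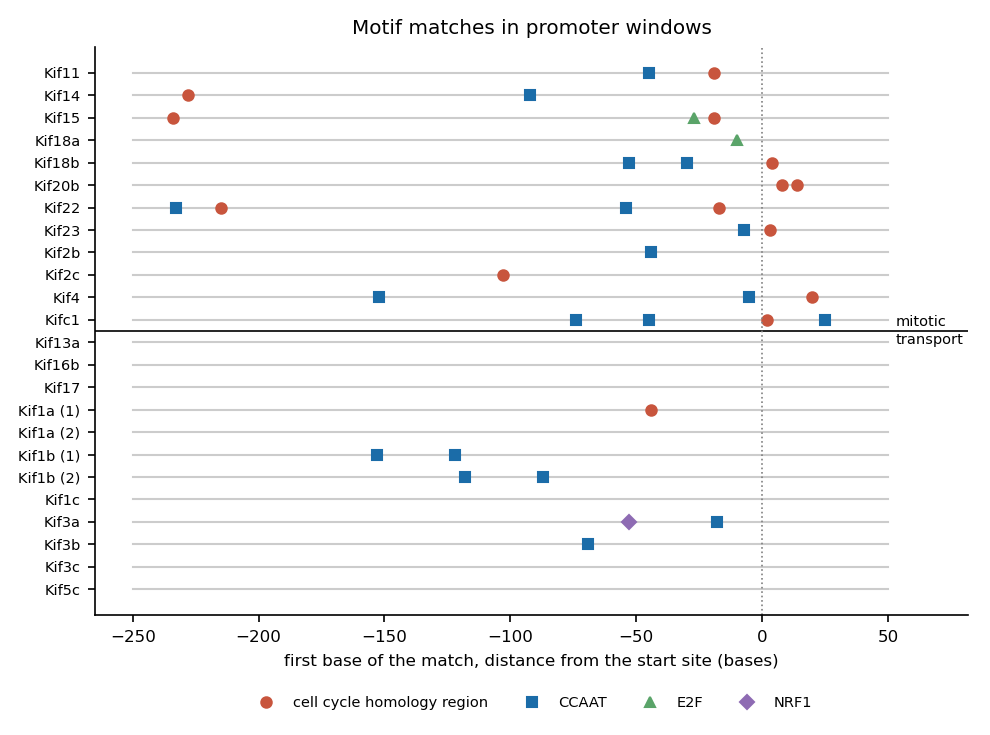
Position of motif matches in the promoter windows of 12 mitotic genes (above the line) and 10 transport genes (below it), with the distance of the first base of the match from the start site on the x axis and a grey line for each window (Kif1a and Kif1b have 2, numbered by coordinate). Matches to the cell cycle homology region (circles) lie in 10 of 12 mitotic genes, 8 of them within 70 bases before and 50 after the start site, and in 1 of 10 transport genes.

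Transport kinesins made up nearly all kinesin RNA of the whole brain. The 40 genes summed to 1023 ± 165 FPKM, between 0.272% and 0.321% of all FPKM in a library, and the transport list held 954 ± 177 FPKM of it (93.2%). The 13 mitotic genes together reached 2.86 ± 0.325 FPKM (0.279%). With the lists as drawn, transport RNA thus exceeded mitotic RNA by a factor of 336 ± 69.0. It was 327 in mouse 1, 272 in mouse 2, 409 in mouse 3 and 247 to 438 in single libraries. This factor depends on where each gene was placed. Kif2a, a relative of the mitotic Kif2c placed with the regulators, alone had 23.5 ± 4.51 FPKM, more than the whole mitotic list. The 6 microtubule regulators summed to 62.4 ± 12.3 FPKM (6.10%) and the 5 cilia genes to 4.05 ± 0.178 FPKM (0.396%).

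On the FPKM scale the transport sum was 834, 870 and 1158 in mice 1, 2 and 3, with both libraries of mouse 3 above the other 6, but in TPM it was 2574, 2715 and 2918 and mouse 3 overlapped the others. The mitotic sum was 2.55, 3.20 and 2.83 FPKM, with overlap between mice 2 and 3, and 7.86, 9.91 and 7.11 in TPM, where both libraries of mouse 3 lay below the rest. Within a library the lists as drawn did not overlap, though they would have if Kif2a had been counted as mitotic. In 8 of 8 libraries all 15 transport genes lay above all 13 mitotic genes. As the lists were chosen with earlier results of these data known, this separation is a description and no independent test. The lowest transport gene was Kif16b, an early endosome motor, at 2.03 to 3.06 FPKM, and the highest mitotic gene of a library was Kifc1 or Kif22, at no more than 0.677 FPKM. The median transport gene had 21.8 FPKM and the median mitotic gene 0.187 FPKM, beside 1.54 FPKM for the median of all genes. A level of 1 FPKM was reached by 15 of 15 transport genes, 0 of 13 mitotic genes, 5 of 6 regulators and 1 of 5 cilia genes, so by 21 of 40 in all, beside 53.4% of all genes. A ratio of the medians of the lists, which gives each gene the same weight, was 119.

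**Figure D2:**
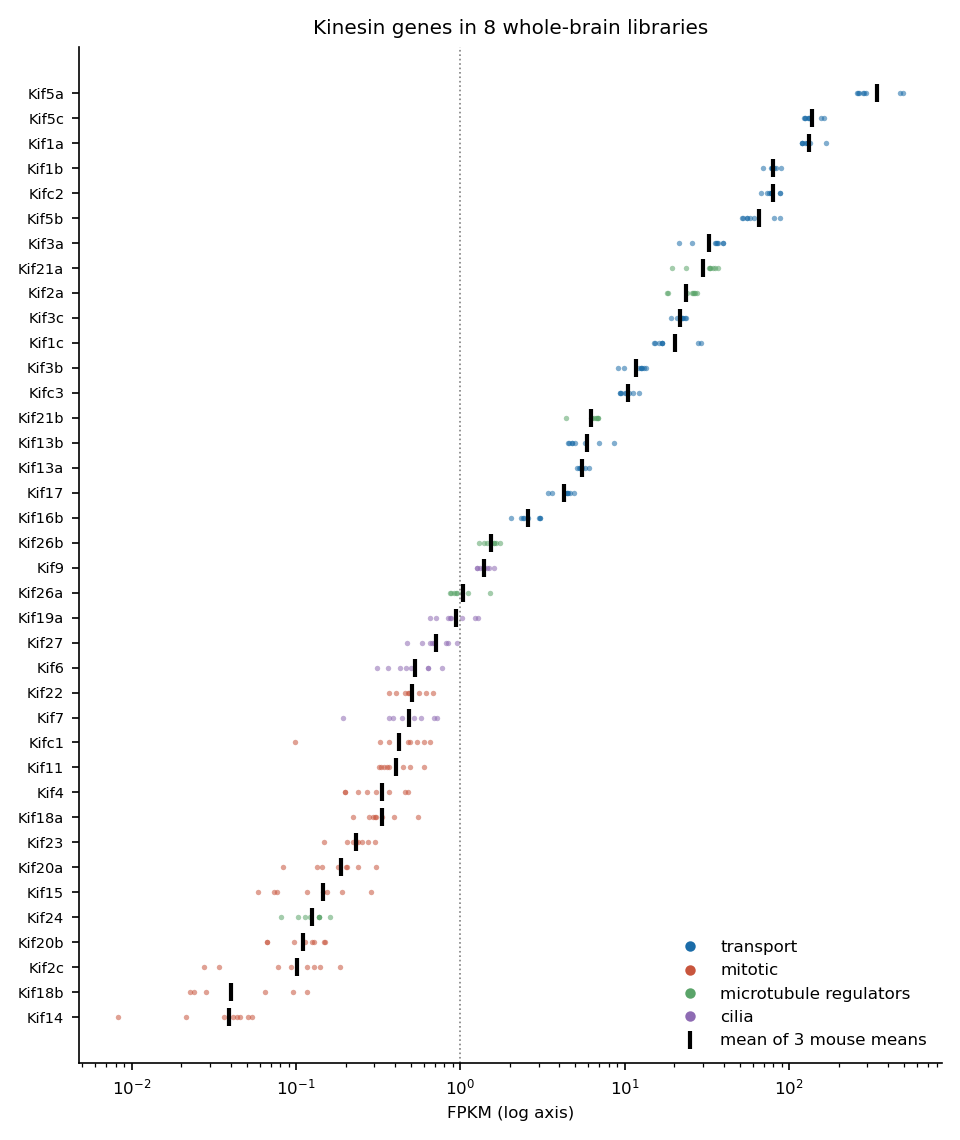
FPKM on a log axis of the 38 kinesin genes above 0, in order of their mean, with 1 point for each of the 8 libraries, coloured by list, and a black tick at the mean of the 3 mouse means. The dotted line marks 1 FPKM, and the transport genes (2.57 to 344 FPKM) lie to its right while the mitotic genes (at most 0.508 FPKM) lie to its left.

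**Figure D3:**
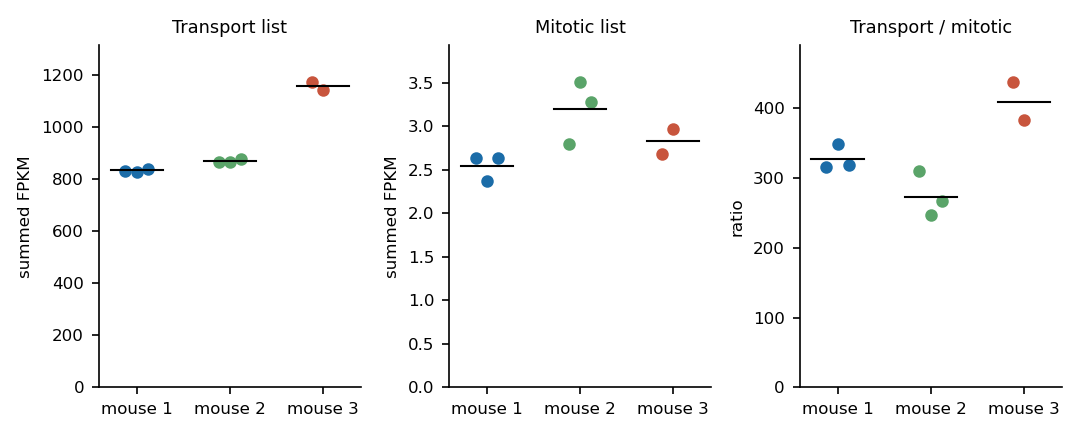
Summed FPKM of the transport list and of the mitotic list, and their ratio, in each library (points) with the mean of each mouse (lines), on axes that start at 0. Transport sums are 829 to 877 in mice 1 and 2 and 1143 and 1173 in mouse 3, while mitotic sums are 2.37 to 2.64 in mouse 1, 2.80 to 3.51 in mouse 2, and 2.68 and 2.97 in mouse 3. In TPM the transport sums of mouse 3 overlap those of the other mice.

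Within the transport list, kinesin-1, the main axonal motor for mitochondria and vesicles, led with 548 ± 156 FPKM, which is 53.5% of all kinesin FPKM. Its neuronal heavy chain Kif5a (chr10:127225695-127263363, mm10) was the highest kinesin gene at 344 ± 121 FPKM, above 99.5% of all genes. It measured 261, 259 and 265 FPKM in the libraries of mouse 1, 295, 280 and 285 in mouse 2, and 472 and 492 in mouse 3. Both libraries of mouse 3 lay well above the other 6, which kept within a narrow band. Kif5c, the other neuron-enriched heavy chain, had 124, 125 and 126 FPKM in mouse 1, 132, 131 and 131 in mouse 2, and 156 and 163 in mouse 3. Kif5b, the heavy chain that most tissues use, had 51.5, 55.3 and 52.4 FPKM in mouse 1, 61.3, 58.1 and 55.1 in mouse 2, and 81.2 and 88.2 in mouse 3. For these genes too both libraries of mouse 3 lay above the other 6. Kif5a supplied 62.0 ± 3.78% of the kinesin-1 heavy chain FPKM, Kif5c 26.0 ± 3.51% and Kif5b 12.0 ± 0.284%. The share of Kif5a was 59.5%, 60.2% and 66.4% in mice 1, 2 and 3, and that of Kif5b stayed between 11.4% and 12.6% in the 8 libraries.

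Kinesin-3, monomeric or dimeric motors of vesicle precursors, was second with 246 ± 24.4 FPKM (24.1%). Kif1a (chr1:93015455-93101874), the motor of synaptic vesicle precursors, measured 120, 120 and 125 FPKM in mouse 1, 119, 128 and 128 in mouse 2, and 168 and 135 in mouse 3. The libraries of mouse 3 differed more from each other here than the other 6 did among themselves. Kif1b, its close relative, was at 79.5 ± 1.40 FPKM. Its mouse means lay close together, but the libraries of mouse 3, at 88.7 and 69.0 FPKM, were the highest and the lowest of the 8. Kif1c, a vesicle and mRNA motor of many tissues, had 16.8, 15.3 and 15.1 FPKM in mouse 1, 16.9, 16.9 and 16.1 in mouse 2, and 27.8 and 29.0 in mouse 3, so that mouse 3 lay apart from the rest. The paired genes Kif13a and Kif13b had 5.48 ± 0.118 and 5.87 ± 1.71 FPKM. Kif13b measured 4.76, 4.59 and 4.52 FPKM in mouse 1, 4.95, 5.75 and 4.797 in mouse 2, and 8.63 and 7.01 in mouse 3, and the ratio of Kif13a to Kif13b accordingly was 1.16, 1.07 and 0.712 in the 3 mice. Kif16b had 2.43, 2.35 and 2.57 FPKM in mouse 1, 3.06, 3.02 and 3.04 in mouse 2, and 2.03 and 2.40 in mouse 3, with overlap between mice 1 and 3.

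Kinesin-2, a heterotrimer of 2 motor chains and the accessory subunit Kifap3 that serves axons and cilia, summed to 70.5 ± 11.3 FPKM with Kif17 included (6.88%). Kif3a (chr11:53567369-53604246), the chain common to the heterotrimers, had 39.4, 39.5 and 37.1 FPKM in mouse 1, 36.1, 35.4 and 36.3 in mouse 2, and 25.8 and 21.3 in mouse 3. Its partner Kif3b had 13.1, 12.3 and 12.6 FPKM in mouse 1, 12.6, 13.6 and 12.5 in mouse 2, and 9.85 and 9.07 in mouse 3. For both chains mouse 3 was lowest and did not overlap the other mice. The neuron-enriched partner Kif3c was at 21.8 ± 1.03 FPKM, above Kif3b in 8 of 8 libraries with a ratio of 1.54 to 2.26. Kif3a roughly matched its 2 partners together, with a ratio to their sum of 1.09, 1.03 and 0.782 in mice 1, 2 and 3, and Kifap3 was higher than Kif3a in each mouse (1.99, 2.00 and 2.37 times). Kif17, a dendritic motor that works as a dimer of itself, was at 4.25 ± 0.331 FPKM.

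The minus-end-directed motors with a C-terminal motor domain were uneven. Kifc2, found mainly in nervous tissue, was as high as Kif1b at 79.5 ± 7.99 FPKM, and Kifc3 was at 10.5 ± 1.16 FPKM. Both belong to the transport list, whereas the third gene of this class, Kifc1, a spindle motor, was at 0.421 ± 0.164 FPKM. Kif5a alone held 32.9 ± 5.94% of all kinesin FPKM, and the 5 highest genes (Kif5a, Kif5c, Kif1a, Kif1b and Kifc2) held 75.2 ± 3.38%. Neighbours in the order of the 40 genes often lay close. The ranges of their mouse means overlapped in 24 of 39 pairs, among them Kif12 and Kif2b, both at 0. These ranges leave out that both genes of a pair were measured in the same libraries. Kif5a lay apart from Kif5c, and Kif1a from Kif1b, while Kif5c and Kif1a, Kif1b and Kifc2, and Kif3a and Kif21a overlapped. Within libraries, the first gene of each of these overlapping pairs was the higher in 7 of 8.

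The transport genes differed in how far 1 transcript led, within the limits of an estimate that divides reads between overlapping transcripts. Of the 2 Kif5a transcripts, the one of 6311 bases held 99.8 ± 0.125% of the FPKM. Kif1b has a short transcript of 7066 bases, which codes for the form known as a mitochondrial motor, and 2 long ones, which code for the form that carries synaptic vesicle precursors. The short one was at 1.41 ± 0.105 FPKM, 1.77 ± 0.102% of Kif1b, and the long ones held 76.3 ± 1.24% and 22.0 ± 1.34%. The leading Kif1a transcript, which begins at the downstream start, held 46.5 ± 1.61%, that of Kif3a 80.7 ± 5.18% and that of Kif17 71.5 ± 3.04%. For Kifc3 the split differed between mice, as the transcript of 2927 bases held 2.00%, 2.28% and 29.9% of the gene in mice 1, 2 and 3.

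The mitotic genes were all low but for most of them not at 0. The highest was Kif22, a chromosome-arm motor, at 0.508 ± 0.0871 FPKM, with 0.367, 0.404 and 0.484 in mouse 1, 0.479, 0.677 and 0.621 in mouse 2, and 0.461 and 0.563 in mouse 3. Kifc1 followed with 0.482, 0.541 and 0.491 in mouse 1, 0.657, 0.325 and 0.598 in mouse 2, and 0.365 and 0.0988 in mouse 3. Kif11, the motor that pushes spindle poles apart, had 0.318, 0.343 and 0.368 in mouse 1, 0.356, 0.599 and 0.450 in mouse 2, and 0.330 and 0.495 in mouse 3. In these genes the libraries of each mouse overlapped those of another. The chromokinesin Kif4 and the congression motor Kif18a were at 0.332 ± 0.128 and 0.332 ± 0.0512 FPKM. Kif23 and Kif20a, which act at the central spindle in cytokinesis, were at 0.233 ± 0.0171 and 0.187 ± 0.0290 FPKM. Kif15, Kif20b, Kif2c, Kif18b and Kif14 lay between 0.0388 and 0.146 FPKM, and Kif2b was listed at 0 in 8 of 8 libraries, as was Kif12, which is best known from kidney.

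Few reads stood behind these levels. Reads over Kif11 covered 2.77 to 5.59 kilobases in all per library, those over Kif14 0.157 to 0.937 kilobases, and those over Kif18b 0 to 0.819 kilobases, against 3172 to 6627 kilobases for Kif5a. The lower confidence bound that the authors' program gave was above 0 in 8 of 8 libraries for Kif11 and in 2 of 8 for Kif18b. None of the mitotic genes reached the minimum mean of 1 FPKM for the comparison of the mice given further on. With no minimum, 1 of 12 passed that test (14.0% of 19296 genes did), namely Kif4, with a difference of 0.22 on the log2 scale between mouse 3 and the mean of mice 1 and 2 (limma, adjusted p = 0.0381), and its levels were 0.199, 0.239 and 0.198 FPKM in mouse 1, 0.370, 0.308 and 0.269 in mouse 2, and 0.457 and 0.477 in mouse 3. Reads of Kifc1 can be split with its near-identical copy Kifc5b (0.521 ± 0.128 FPKM), so both levels are uncertain. Other cell-division genes were at like levels. Of 23 listed ones, 3 reached 1 FPKM, their median was 0.443 FPKM, and the proliferation marker Mki67 was at 0.206 ± 0.0395 FPKM. The highest were Racgap1 and Incenp at 3.70 ± 0.436 and 3.39 ± 0.309 FPKM.

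The microtubule regulators act on the track itself. Kif21a, which restrains microtubule growth, had 35.2, 34.5 and 32.8 FPKM in mouse 1, 37.0, 32.6 and 33.0 in mouse 2, and 23.5 and 19.3 in mouse 3. Kif2a, a depolymerase that limits axon branches, had 26.2, 26.5 and 25.6 FPKM in mouse 1, 27.5, 23.9 and 26.9 in mouse 2, and 18.1 and 18.4 in mouse 3. Mouse 3 was lowest in both, without overlap. Kif2c, the mitotic relative of Kif2a, lay at only 0.0275 to 0.186 FPKM, so that ratios to it are unsteady. Kif2a exceeded it in 8 of 8 libraries, by factors from 99.4 to 804. Kif21b was lower, with 6.88, 6.90 and 6.33 FPKM in mouse 1, 6.47, 6.21 and 6.82 in mouse 2, and 6.70 and 4.37 in mouse 3, and Kif26b, Kif26a and the centriole gene Kif24 were at 1.55 ± 0.141, 1.04 ± 0.148 and 0.125 ± 0.0123 FPKM.

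Among the cilia genes, Kif9, a motile cilia motor, was the only one above 1 FPKM. It had 1.25, 1.32 and 1.599 FPKM in mouse 1, 1.26, 1.45 and 1.49 in mouse 2, and 1.37 and 1.39 in mouse 3, and its mouse means varied by 0.705%. Kif19a, which sets cilia length, measured 1.23, 0.880 and 1.02 in mouse 1, 0.655, 0.864 and 0.836 in mouse 2, and 1.28 and 0.711 in mouse 3. Kif27 had 0.686, 0.475 and 0.812 in mouse 1, 0.949, 0.584 and 0.649 in mouse 2, and 0.835 and 0.668 in mouse 3. All 3 mice overlapped in Kif9 and Kif27, whereas in Kif19a mouse 1 lay above mouse 2 and mouse 3 spanned both. Kif6 and the hedgehog regulator Kif7 were at 0.527 ± 0.0961 and 0.484 ± 0.0221 FPKM.

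The 3 mice were then compared with each other with an F-test of limma, which borrows the spread of other genes, on the scale of log2(FPKM + 1). The libraries of a mouse served as its replicates, so the test describes these 3 mice and no condition. Of the 21 kinesin genes whose mean reached 1 FPKM, 10 passed an adjusted p of 0.05 (47.6%), beside 3310 of 13001 genes tested (25.5%). Of the 10, 5 were higher in mouse 3 than the mean of mice 1 and 2 (14.1% of all genes tested were called in this direction) and 5 were lower (11.3%). With every library scaled to the same total (TPM), 9 kinesin genes passed (42.3% of all genes did), 2 of them higher and 7 lower. Of all genes called in TPM, 13.1% were higher in mouse 3. The median difference of mouse 3 over all genes tested was -0.26 on the log2 scale in TPM, beside 0.02 in FPKM. With the trend of each library with transcript length removed, 12 passed (19.5% of all genes), 9 of them higher and 3 lower. Of all genes called on that scale, 53.2% were higher. No gene called in 2 of these 3 scalings changed direction. Without library 2 of mouse 3, 2 of the 10 still passed, Kif5a and Kif1c, and so did 126 genes in all (0.969%), in a fit in which the lone library of mouse 3 is assumed to vary like those of the other mice. Without library 1 of mouse 3, which also leaves a lone library, the calls did not fall in this way. Differences on the log2 scale without library 1 and without library 2 were 0.841 and 0.783 for Kif5a, and -0.777 and -0.514 for Kif3a. They were larger without library 2 for Kif2a (-0.478 and -0.5), Kif13b (0.446 and 0.711) and Kif16b (-0.137 and -0.3). The cause of the fall in calls was not tested. The F-test does not say which mice differ, so the direction of each call is read from the means.

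The 5 genes that were higher in mouse 3 belonged to the transport list, which held 15 of the 21 tested genes and also 3 of the 5 lower ones. Kif5a rose by 0.81 on the log2 scale (1.76 times the mean of mice 1 and 2; limma, adjusted p = 0.0051) and Kif1c by 0.78 (1.75 times; adjusted p = 0.0051). Both passed in all 8 fits that left out 1 library and under both other scalings, at 0.51 and 0.50 in TPM. Kif5b was higher by 0.60 (adjusted p = 0.00699), Kif13b by 0.58 (adjusted p = 0.0117) and Kif5c by 0.31 (adjusted p = 0.0235). These 3 did not pass in TPM, where their differences were 0.31, 0.35 and 0.02 with adjusted p of 0.0613, 0.0533 and 0.698 (limma). The summed kinesin-1 FPKM was 440, 476 and 726 in mice 1, 2 and 3, and mouse 3 lay above the other libraries in TPM and after removal of the length trend as well.

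The genes that were lower in mouse 3 were chains of kinesin-2, microtubule regulators and Kif16b. Kif21a fell by 0.66 on the log2 scale (limma, adjusted p = 0.00908), Kif3a by 0.65 (adjusted p = 0.0077), Kif2a by 0.49 (adjusted p = 0.0111), Kif3b by 0.40 (adjusted p = 0.0172) and Kif16b, which was highest in mouse 2, by 0.22 (adjusted p = 0.0361). All 5 passed in TPM, where only 13.1% of all called genes were higher in mouse 3. Their differences in TPM were -0.97, -0.96, -0.80, -0.71 and -0.53. After removal of the length trend Kif21a, Kif3a and Kif2a passed and Kif3b and Kif16b did not, with differences of -0.22 and -0.09 and adjusted p of 0.0901 and 0.112 (limma). The summed kinesin-2 FPKM was 78.5, 75.3 and 57.6 in the 3 mice, and mouse 3 lay below the other libraries under all 3 scalings. The ratio of Kif5a to Kif3a was 6.77, 7.99 and 20.5, and no scaling of a whole library can move it. As Kif5a was called higher and Kif3a lower, its shift follows from these 2 calls and is no separate result.

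The other 11 tested genes had adjusted p between 0.0633 and 0.995 (limma) and gave no call. Among them were Kif1a, with a difference of 0.28 (adjusted p = 0.106), Kif1b with -0.03 (adjusted p = 0.899) and Kifc2 with 0.23 (adjusted p = 0.0911), all 3 of which passed with the length trend removed, where the difference of Kif1b was 0.31, as did Kifc3. In TPM Kif3c and Kif17 passed in their place, with differences of -0.41 and -0.46. The summed kinesin-3 FPKM was 228, 236 and 274 in the 3 mice, above the other libraries in mouse 3 on the FPKM scale but overlapping them in TPM.

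**Figure D4:**
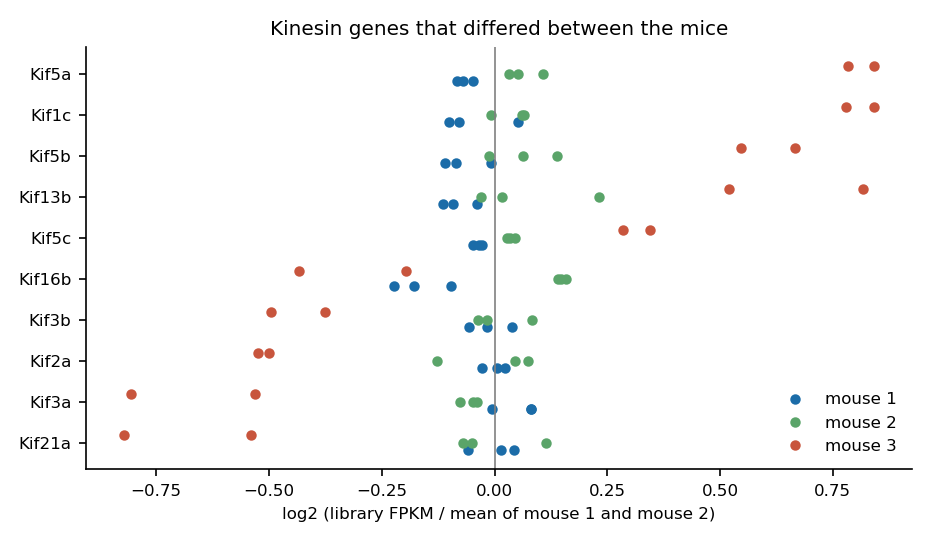
Level of the 10 called kinesin genes in each library as log2 of its FPKM over the mean of mice 1 and 2, coloured by mouse, on the FPKM scale. Points of mouse 3 lie to the right of all others for Kif5a, Kif1c, Kif5b, Kif13b and Kif5c and to the left for Kif3b, Kif2a, Kif3a and Kif21a, while those of Kif16b overlap mouse 1.

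**Figure D5:**
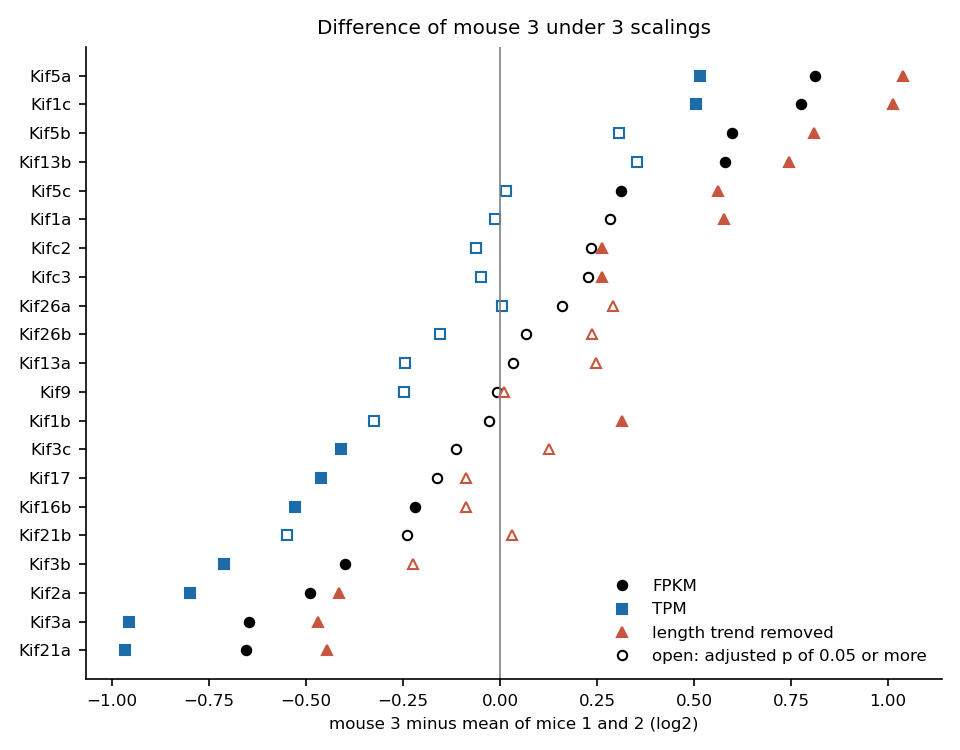
Difference of mouse 3 from the mean of mice 1 and 2 (log2) for the 21 tested kinesin genes, with FPKM (circles), TPM (squares) and the length trend removed (triangles), filled where the adjusted p is under 0.05. TPM lies to the left of FPKM throughout, so that some differences that gave no call on the FPKM scale change sign, such as that of Kif1a (0.28 and -0.01), whereas no gene is filled on both sides of 0.

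Cell type markers moved with the same mice, and their part in the kinesin differences was not tested. On the FPKM scale, 14.1% of all genes tested were called higher in mouse 3 and 11.3% lower. In TPM 42.3% passed, of which 13.1% were higher in mouse 3, and fewer markers were called higher. These were Mbp and, of the 3 astrocyte markers, Gfap alone, with 0 of 4 ependymal and 0 of 3 microglial markers. Called lower in TPM were 3 of 3 neuronal markers, 2 of 2 tested neuroblast markers and 1 of 2 markers of oligodendrocyte precursors, Pdgfra. The values and calls that follow are on the FPKM scale. In mouse 3, 1 of 2 oligodendrocyte markers was called higher, Mbp (summed FPKM of 1287 to 1409.5 in the libraries of mice 1 and 2, against 2888 and 3558), as were 3 of 3 astrocyte markers (114 to 123 against 185 and 211), 3 of 4 ependymal markers (8.42 to 11.1 against 14.6 and 16.4) and 1 of 3 microglial markers (39.2 to 44.0 against 43.7 and 45.8). Called lower were 2 of 3 neuronal markers (1352 to 1466 against 1152 and 1281) and 1 of 2 tested neuroblast markers (7.48 to 8.18 against 4.31 and 6.10). No call was made for the endothelial markers Cldn5 and Pecam1 (adjusted p of 0.0703 and 0.449; 12.97 to 20.4 against 23.3 and 28.7) and the markers of oligodendrocyte precursors Pdgfra and Cspg4 (adjusted p of 0.55 and 0.303; 9.09 to 9.73 against 7.54 and 9.61).

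The partners that load cargo onto these motors did not move as 1 group with the heavy chains. Of the kinesin light chains, which pair with the Kif5 heavy chains, Klc1 was highest at 184 ± 9.86 FPKM and gave no call (difference -0.13; limma, adjusted p = 0.278), and Klc2 at 56.6 ± 6.04 FPKM was lower in mouse 3 by a narrow margin (difference -0.24; adjusted p = 0.0496). The summed light chains were 0.595, 0.522 and 0.319 of the summed Kif5 heavy chains in mice 1, 2 and 3, a ratio that does not depend on the scaling of a library. Kifap3, the kinesin-2 subunit, had 77.1, 71.9 and 55.8 FPKM in the 3 mice and was lower in mouse 3, as Kif3a and Kif3b were (difference -0.41; adjusted p = 0.0181). With Klc4 and the untested Klc3 (0.811 FPKM), 2 of the 4 tested genes of this list passed, both lower, beside 25.5% of all genes tested and 11.3% in this direction.

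Of 15 adaptor genes, which tie motors to cargo, 4 passed, a share near the 25.5% of all genes tested. Plekhm2, which links kinesin-1 to lysosomes, was higher by 0.72 (limma, adjusted p = 0.0051), the mitochondrial adaptor Trak2 by 0.67 (adjusted p = 0.0051) and the scaffold Mapk8ip1 by 0.53 (adjusted p = 0.01), and Clstn1, the calsyntenin that binds light chains, was lower by 0.41 (adjusted p = 0.0335). Clstn1 and Fez1 were the highest adaptors at 205 ± 32.1 and 119 ± 9.20 FPKM, and Fez1 gave no call (adjusted p = 0.249). Without library 2 of mouse 3, Trak2 was the adaptor that passed (limma, adjusted p = 0.0421), while Plekhm2, Mapk8ip1 and Clstn1 had adjusted p of 0.0537, 0.0755 and 0.208, and Kifap3 and Klc2 had 0.116 and 0.161. In TPM, where 42.3% of all genes passed, 8 of the 15 adaptors and 3 of the 4 tested genes of the light chain list did, and Mapk8ip1 was not among them (adjusted p = 0.103).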

How the data were processed

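Whole-brain RNA of 3 mice was sequenced as 8 libraries. RNA from an RNAqueous Micro kit was kept at an integrity score above 8, and made into Kapa mRNA HyperPrep libraries for a NextSeq500 instrument. The submitters' processing notes name TopHat, Cufflinks and mm10, and versions are not given in the sources used here. The authors deposited FPKM of 34535 transcripts, with coverage per base as signal and confidence bounds. The status was OK for all 60 kinesin transcripts. Transcripts were summed per gene. Depth is coverage multiplied by length. Counting intervals cannot be had from FPKM, and p-values measure the spread between libraries of a mouse, which may be technical.

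Mice were compared with limma (version 3.58.1, R 4.3.3) on log2(FPKM + 1) where the mean over mice reached 1 FPKM, and p was adjusted by Benjamini-Hochberg over all 13001 such genes. Fold changes on this scale understate those of low genes. The script was tested on simulated data. Alternatives were a pseudocount of 0.1, other filters, TPM, removal of a lowess trend with length (fraction 0.3), the highest transcript, a prior trend, a replicate block and left-out libraries. Each sum and ratio is descriptive. The genes named are all 40 members, with values per library for the 3 highest of each list and for those that passed, and, of the light chains, adaptors, dynein and dynactin, and cell division lists, the 2 highest and those that passed. Klc3, Klc4, Dync1h1 and Mki67 were named besides. Members and lists were chosen with earlier results of these data known. Deposited starts count from 0 and were raised by 1, and 40 of 40 members overlapped their RefSeq locus on GRCm38. Protein sequences were not used here, and 1 further marker gene is not reported here.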

Additional observations from a re-analysis of the deposited data

Results flagged for a closer look

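Of 46 measures examined across the 8 libraries (each kinesin gene above 0, sums and ratios), 3 went beyond Dixon's limit for 8 values. In these, 1 library lay farther from its nearest neighbour, as a share of the whole range, than that limit. Chance alone would give about 1 such case in 20 for independent values. The libraries come from 3 mice, with mouse 3 apart, so that rate does not hold for them. Kif1a was at 167.5 FPKM in library 1 of mouse 3, with the next library at 134.8. Kif21b was at 4.374 FPKM in library 2 of mouse 3, where the nearest was at 6.21. Kif26a, a motor-domain protein without known motility, was at 1.512 FPKM in library 1 of mouse 3, with the next at 1.108. All 3 cases fell on libraries of mouse 3, and none of these genes passed the test between the mice on the FPKM scale.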

How the results depend on the processing

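In TPM the sums became 2940 for all kinesins, 2736 for transport and 8.29 for mitotic genes, and their ratio was 337. The ratio was 119 for the median gene of each list and 262 without the highest gene of each. Leaving out 1 library at a time gave 1017 to 1030 FPKM for all kinesins, 949 to 959 for transport, 2.80 to 2.92 for mitotic genes and a ratio of 328 to 346. Of all genes, 3310 differed between the mice, 5493 in TPM, and 126 to 3873 with 1 library left out, the lowest without library 2 of mouse 3. Of kinesin genes 10 did so, and 2 to 11 with 1 library left out (2 without library 2 of mouse 3). In mice 1 and 2 only, chosen after seeing the data, limma called 0 of 20 kinesin genes, 1 at an unadjusted p under 0.05, and 3 genes in all. No kinesin gene called on the FPKM scale was called in the other direction under an alternative, while some genes without a call changed sign (Kif1a was at -0.01 in TPM). The causes were not tested.

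Whether the library numbers pair the libraries of different mice is not given. Deviations of same-numbered libraries correlated at 0.00276 to 0.107 and those of differently numbered ones at -0.135 to 0.0645. These deviations were taken from the mean of each mouse, which ties them to each other, so the weak correlations cannot settle it. With the number as a replicate block, 8 kinesin genes and 2995 genes in all were called, without Kif5c and Kif16b.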

Other observations

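Cytoplasmic dynein, the motor that runs opposite to most kinesins, was measured beside them. The 15 dynein and dynactin genes summed to 1113 ± 53.3 FPKM, with the light chains Dynlrb1 and Dynll2 highest at 236 ± 34.2 and 209 ± 16.6 FPKM. This sum includes light and intermediate chains and dynactin, so it is not comparable with the 1023 ± 165 FPKM of the kinesin heavy chains. The dynein heavy chain Dync1h1, which bears the motor, was at 27.9 ± 6.12 FPKM. Between the mice 6 of the 15 passed (limma), beside 25.5% of all genes tested. Lower in mouse 3 were the intermediate chains Dync1i1 (by 0.57; adjusted p = 0.0115) and Dync1i2 (by 0.30; adjusted p = 0.0296), the light intermediate chain Dync1li1 (by 0.35; adjusted p = 0.0241) and the dynactin arm Dctn1 (by 0.40; adjusted p = 0.035). Higher were the light chain Dynll1 (by 0.60; adjusted p = 0.0285) and the dynactin subunit Dctn3 (by 0.80; adjusted p = 0.00942). In TPM 7 passed, beside 42.3% of all genes, and without library 2 of mouse 3 the adjusted p of these 6 genes lay between 0.0946 and 0.21.

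The pseudogene Kif4-ps was listed at 0 in 8 of 8 libraries. The antisense transcript Kif16bos, which lies beside the start of Kif16b, was at 0.254 FPKM in 1 library and at 0 in the other 7. The promoter windows of the mitotic list had a median GC content of 60.2% and those of the transport list 65.7%, beside 52.7% for all 32851 windows.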
